A study of Mus musculus with 8 samples.

Results

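Retinol uptake and retinoic acid synthesis were described through 6 genes in MHCII+CD64+ cells of the colon sorted by the receptor GPR35. The genes were Stra6l, Rdh10, Rdh11, Dhrs3, Aldh1a1 and Aldh1a2. The genes were picked by symbol with their difference between the sorted populations already known, so their values in that contrast are given as a description, with no p-value; the number of them past the threshold is given once, and nothing is read from it. All 6 were among the 14980 genes of the deposited count table, and all 6 passed the filter on low counts; Stra6l passed through the GPR35-positive libraries, the group in which it was high. RNA came from 4 GPR35-positive and 4 GPR35-negative libraries, each a sorted MHCII+CD64+ population of the lamina propria of the colon, from male Mus musculus. The 4 animals, labelled ID1, ID5, ID6 and ID7, each gave 1 library to both groups, and their libraries are called replicates 1 to 4 here. No treatment is labelled in any group, and no strain, genotype or age is given among the labels used.

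Vitamin A reaches tissues mainly as retinol bound to retinol-binding protein, and receptors of the STRA6 type carry it into cells. Retinol dehydrogenases oxidise retinol to retinal, short-chain reductases turn retinal back into retinol, and retinaldehyde dehydrogenases oxidise retinal irreversibly to retinoic acid. Retinoic acid acts through nuclear RAR and RXR receptors, and in the gut it is known for imprinting homing receptors on lymphocytes and for shaping mononuclear phagocytes; dendritic cells, stromal cells and epithelium all carry enzymes of the pathway.

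Library depth over the listed genes was 42.5 ± 6.38 M counts in GPR35-positive libraries and 23.6 ± 6.10 M in GPR35-negative libraries (SD, n = 4 each), with ranges of 33.8 to 48.6 M and 15.997 to 30.1 M. Levels are CPM, counts scaled to a common library size, after TMM scaling, a correction for library composition. Gpr35 itself was at 73.3 ± 14.9 CPM in GPR35-positive and 2.96 ± 1.46 CPM in GPR35-negative libraries, and its positive library exceeded the negative one in each of the 4 animals. The GPR35-negative libraries held much RNA of other cells. The 10 plasma and B cell markers summed to 1211 to 2639 CPM in GPR35-positive and 73211 to 143353 CPM in GPR35-negative libraries, and all 10 were lower in the positive ones (edgeR quasi-likelihood test, adjusted p under 0.05). The 20 macrophage identity genes, such as Csf1r and C1qa, summed to 50559 to 59174 CPM in GPR35-positive libraries. In GPR35-negative replicates 1 to 4 they summed to 26861, 13216, 6556 and 8483 CPM, below the plasma cell sum of the same library each time. Most of that plasma cell sum was Jchain, at 67740, 134241, 100379 and 93753 CPM in these libraries. Setting the sums side by side therefore does not weigh plasma cell RNA against macrophage RNA. Fewer cells of a type and less RNA per cell cannot be told apart in such bulk samples.

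Sequences just before the start sites were read from RefSeq promoter windows of GRCm38.p6, the assembly that mm10 also names, because the members differ in direction between the populations. Of the 6 genes, 5 matched, with 10 windows of 300 bases (250 before to 50 after each start); Rdh10 was not matched. The windows were searched on both strands for the hexamer AGGTCA, its variant AGTTCA, the variant GGGTCA and the variant GGTTCA, which retinoic acid receptors bind as spaced pairs, and for TATAAA; these motifs do not overlap each other in the sequences shown. A hexamer was present in 3 of the 10 windows, against 43.7% of all 32851 windows. Direct pairs of these hexamers spaced by 1, 2 or 5 bases were in 0 of the 10 windows, against 0.222%, 0.268% and 0.0974% of all windows. The 250 bases before a start are shown for Stra6l (chr4:45848566-45848815, plus strand), for the Aldh1a1 start whose window holds a hexamer (chr19:20601718-20601967, plus strand) and for the Rdh11 start whose window holds AGGTCA (chr12:79190962-79191211, minus strand). Capitals mark the motif letters as read on the strand shown: TATAAA on the opposite strand in Stra6l, which 13.6% of all windows hold on either strand, GGGTCA on the opposite strand in Aldh1a1, and AGGTCA in Rdh11.
Stra6l: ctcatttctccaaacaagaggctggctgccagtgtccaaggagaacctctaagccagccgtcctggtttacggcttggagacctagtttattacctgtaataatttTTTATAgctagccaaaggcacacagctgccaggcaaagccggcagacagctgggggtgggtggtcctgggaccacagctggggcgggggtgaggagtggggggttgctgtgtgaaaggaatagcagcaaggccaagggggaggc
Aldh1a1: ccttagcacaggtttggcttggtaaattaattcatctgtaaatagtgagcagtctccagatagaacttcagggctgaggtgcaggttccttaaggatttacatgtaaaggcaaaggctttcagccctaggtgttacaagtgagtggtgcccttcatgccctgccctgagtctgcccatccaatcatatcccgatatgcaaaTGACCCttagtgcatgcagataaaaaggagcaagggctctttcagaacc
Rdh11: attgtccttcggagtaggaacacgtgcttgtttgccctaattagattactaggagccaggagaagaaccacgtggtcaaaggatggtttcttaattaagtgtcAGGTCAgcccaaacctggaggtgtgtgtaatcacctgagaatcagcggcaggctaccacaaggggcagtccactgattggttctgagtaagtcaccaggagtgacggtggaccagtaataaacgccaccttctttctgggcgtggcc

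Stra6l encodes a receptor for retinol-binding protein related to STRA6 and lies on chromosome 4, 45848664 to 45887008 (GRCm38, plus strand). It was at 27.5, 18.1, 15.1 and 18.6 CPM in GPR35-positive replicates 1 to 4, against 0.275, 0, 0.719 and 0.266 CPM in GPR35-negative replicates 1 to 4. The groups did not overlap: the GPR35-positive libraries held 1177, 542, 603 and 764 reads, and the GPR35-negative ones 9, 0, 18 and 8. The 0 reads of GPR35-negative replicate 2 allow up to 0.178 CPM, a limit that covers counting error only. The log2 fold change of GPR35-positive over GPR35-negative cells was 5.91 ± 0.71 (SE), and 3.19 ± 1.02 after scaling libraries by their macrophage identity genes. It was the only one of the 6 with a positive value under both scalings. The promoter shown first above is one of the pair of annotated starts of this gene.

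Rdh10 encodes the main retinol dehydrogenase of embryonic retinoic acid synthesis (chromosome 1, 16105774 to 16133734, plus strand). It was at 8.79, 7.29, 10.6 and 8.58 CPM in GPR35-positive replicates 1 to 4, against 26.2, 19.1, 22.5 and 27.4 CPM in GPR35-negative replicates 1 to 4. Every GPR35-positive library was below every GPR35-negative one, with a log2 fold change of -1.43 ± 0.20 (SE).

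Rdh11 encodes a microsomal short-chain dehydrogenase that works on retinol and retinal and is best known from the retina (chromosome 12, 79174337 to 79192293, minus strand). It was at 17.0, 13.9, 16.2 and 17.9 CPM in GPR35-positive replicates 1 to 4, against 26.2, 37.7, 24.1 and 24.5 CPM in GPR35-negative replicates 1 to 4. The groups did not overlap, and GPR35-negative replicate 2 stood above the other negative libraries. The log2 fold change was -0.79 ± 0.19 (SE), and -0.50 without replicate 2.

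Dhrs3 encodes the reductase that turns retinal back into retinol, and it is known as a partner of RDH10 and as a gene induced by retinoic acid (chromosome 4, 144892827 to 144928209, plus strand). It was at 125, 141, 141 and 135 CPM in GPR35-positive replicates 1 to 4, against 119, 75.9, 33.2 and 52.3 CPM in GPR35-negative replicates 1 to 4. The positive libraries lay close together, while the negative ones were spread, and GPR35-negative replicate 1 came just under the lowest positive library. The log2 fold change was 0.95 ± 0.33 (SE), and it ranged from 0.69 without replicate 3 to 1.37 without replicate 1. Scaled to the macrophage identity genes it turned to -1.25 ± 0.42. In the GPR35-negative libraries Dhrs3 followed the same order as the summed identity genes, replicate 1 highest, then 2, 4 and 3; these 4 points share library and depth, and the part of macrophage content in the Dhrs3 values was not tested.

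Aldh1a1 encodes retinaldehyde dehydrogenase 1, which makes retinoic acid (chromosome 19, 20492715 to 20643465, plus strand). It was at 2.57, 3.35, 5.47 and 5.27 CPM in GPR35-positive replicates 1 to 4, against 15.9, 11.6, 21.9 and 29.1 CPM in GPR35-negative replicates 1 to 4. All positive libraries lay below all negative ones, with a log2 fold change of -2.24 ± 0.37 (SE). Of its 50-base transcript windows 6.54% also occur in its close copy Aldh1a7, which was not analysed here, so part of the reads could have been split between these genes. The other 5 members shared no such window with another gene, and none of the 6 shared exonic bases with an overlapping gene in GENCODE vM21.

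Aldh1a2 encodes retinaldehyde dehydrogenase 2, the enzyme for which gut dendritic cells that make retinoic acid are known (chromosome 9, 71215789 to 71296243, plus strand). It was at 2.496, 7.495, 11.9 and 16.3 CPM in GPR35-positive replicates 1 to 4, against 11.5, 7.66, 10.6 and 10.7 CPM in GPR35-negative replicates 1 to 4. The groups overlapped: the positive library was the lower one in replicates 1 and 2 and the higher one in replicates 3 and 4. Within animals the log2 difference was -2.17, -0.03, 0.16 and 0.60 in replicates 1 to 4. The log2 fold change was -0.09 ± 0.49 (SE), and 0.30 without replicate 1, whose GPR35-positive library held the least of this mRNA. With limma voom it was 0.09.

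**Figure D1:**
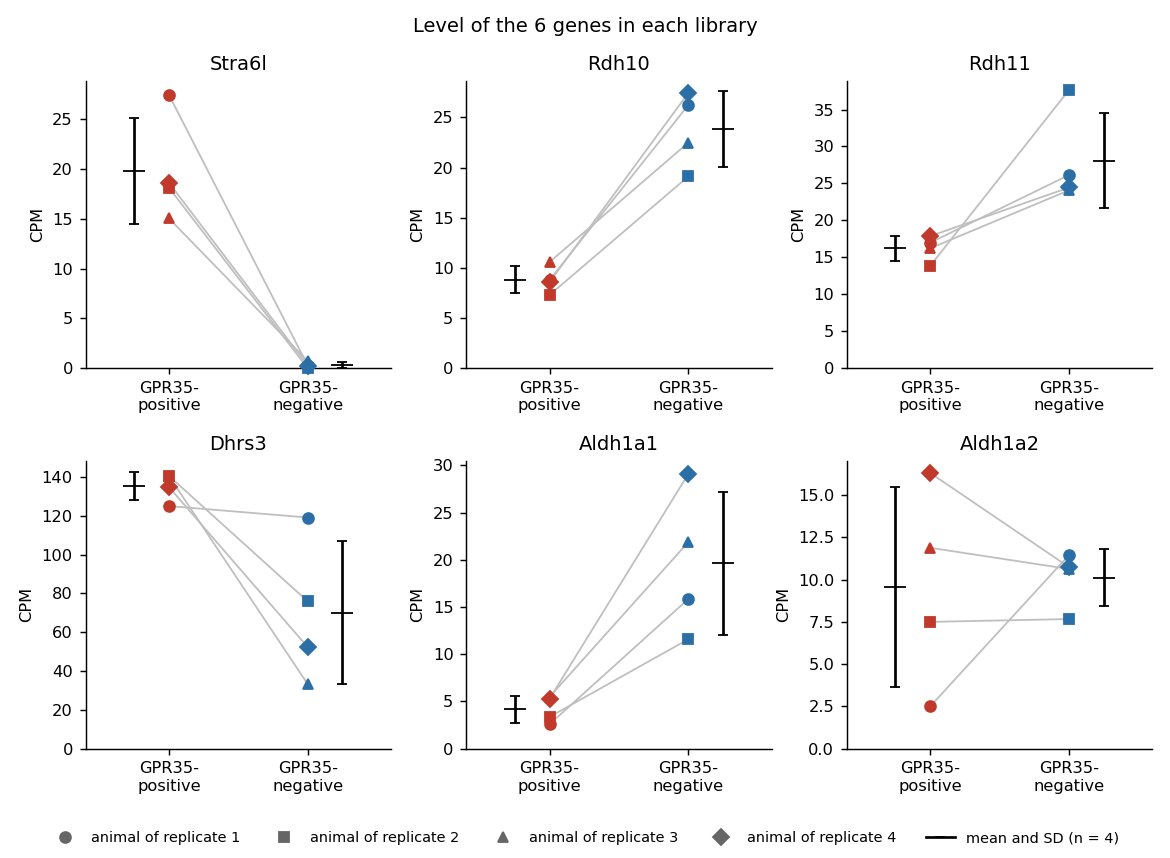
Each panel plots CPM (linear axis from 0) of 1 gene in the 4 GPR35-positive (red, left) and 4 GPR35-negative (blue, right) libraries, with grey lines joining libraries of 1 animal and black bars giving mean and SD. Stra6l was at 15.1 to 27.5 CPM in the positive libraries and at most 0.719 CPM in the negative ones, Rdh10, Rdh11 and Aldh1a1 lay lower in every positive library, and Aldh1a2 overlapped.

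Past the adjusted threshold of 0.05 in edgeR's quasi-likelihood fit over 14184 genes were 4 of the 6 members, 1 higher and 3 lower in GPR35-positive cells, where 38.0% of all tested genes were called (18.5% higher, 19.5% lower). With the animal as a block these were 5 of 6, Dhrs3 being added, against 39.4% of all genes. The groups did not overlap for 5 of the 6 members, against 42.1% of all genes. Since the members were chosen with this contrast known, nothing is read from these shares. The median log2 fold change of the 6 was -0.44, beside -0.05 over all tested genes.

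**Figure D2:**
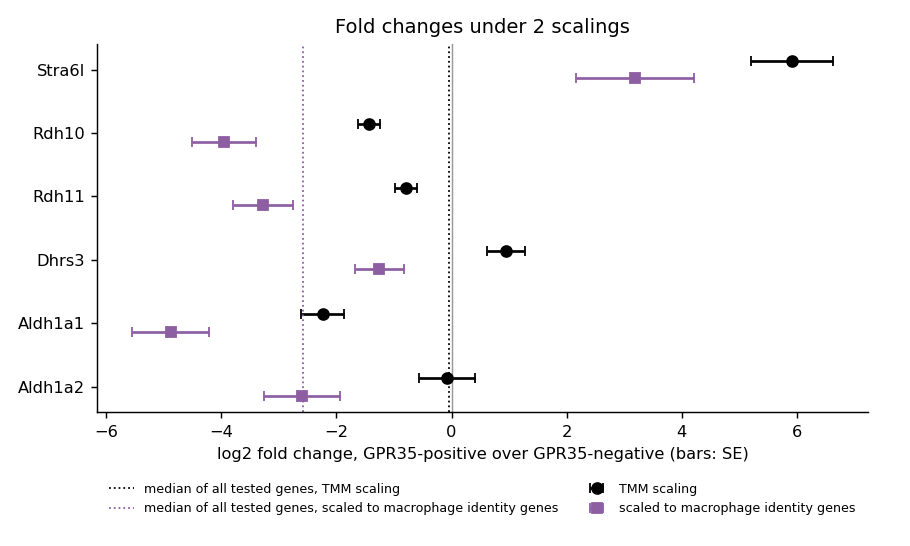
The log2 fold change of GPR35-positive over GPR35-negative cells (points) with its SE (bars) is plotted for the 6 genes under TMM scaling (black) and after scaling libraries by their macrophage identity genes (purple); dotted lines mark the median of all tested genes. The second scaling moved that median from -0.05 to -2.59, and of the 6 genes Stra6l (3.19) and Dhrs3 (-1.25) lay above it by more than their SE, Rdh10 (-3.95), Rdh11 (-3.28) and Aldh1a1 (-4.88) below it by more than their SE.

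Scaling to the macrophage identity genes shifted the median log2 fold change of all genes from -0.05 to -2.59, so values under it are read relative to that shift. Aldh1a2 was at -2.59 ± 0.66 (SE), the same as the median to 2 decimals. Stra6l and Dhrs3 lay above the median of all genes, while Aldh1a1 (-4.88 ± 0.66), Rdh10 (-3.95 ± 0.56) and Rdh11 (-3.28 ± 0.52) lay below it. The scaling changes only the factor of each library and so moves all genes largely together. Positions relative to the median were thus mostly fixed in advance, and no direction is read from them.

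Levels per length, in CPM per kilobase of the deposited gene length, allow the genes to be set against each other. In GPR35-positive libraries Dhrs3 was highest at 75.3 ± 4.09 CPM per kilobase (SD, n = 4), followed by Rdh11 at 10.3 ± 1.10. Stra6l (4.90 ± 1.32), Aldh1a2 (4.22 ± 2.61) and Rdh10 (3.84 ± 0.59) came next, with ranges that overlapped, and Aldh1a1 was at 2.05 ± 0.70, a range that overlapped with Aldh1a2 only. In GPR35-negative libraries Dhrs3 (39.0 ± 20.6) and Rdh11 (17.8 ± 4.10) again led, now with overlapping ranges. Rdh10 (10.4 ± 1.65) and Aldh1a1 (9.65 ± 3.75) overlapped each other, Aldh1a2 was at 4.47 ± 0.74, and Stra6l came last at 0.078 ± 0.074 CPM per kilobase.

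Ratios between a pair of genes in 1 library do not depend on how libraries are scaled. The retinal reductase Dhrs3 exceeded the retinol dehydrogenase Rdh10, per length, by a ratio of 18.2, 24.6, 17.0 and 20.1 in GPR35-positive replicates 1 to 4, against 5.80, 5.06, 1.89 and 2.43 in GPR35-negative replicates 1 to 4. The groups did not overlap. Aldh1a2 over Aldh1a1, per length, was 0.873, 2.01, 1.95 and 2.78 in GPR35-positive replicates 1 to 4, against 0.649, 0.594, 0.436 and 0.331 in GPR35-negative ones. Aldh1a2 thus exceeded Aldh1a1 in 3 of the 4 positive libraries and in 0 of the 4 negative ones. Aldh1a2 made up 56.5 ± 11.6% of the summed Aldh1a1, Aldh1a2 and Aldh1a3 level per length in GPR35-positive libraries, against 25.0 ± 6.50% in GPR35-negative ones (SD, n = 4 each). The sum itself was 7.03 ± 3.68 CPM per kilobase in GPR35-positive and 19.2 ± 6.63 CPM per kilobase in GPR35-negative libraries. These ratios come from the contrast used to choose the genes and were not tested.

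**Figure D3:**
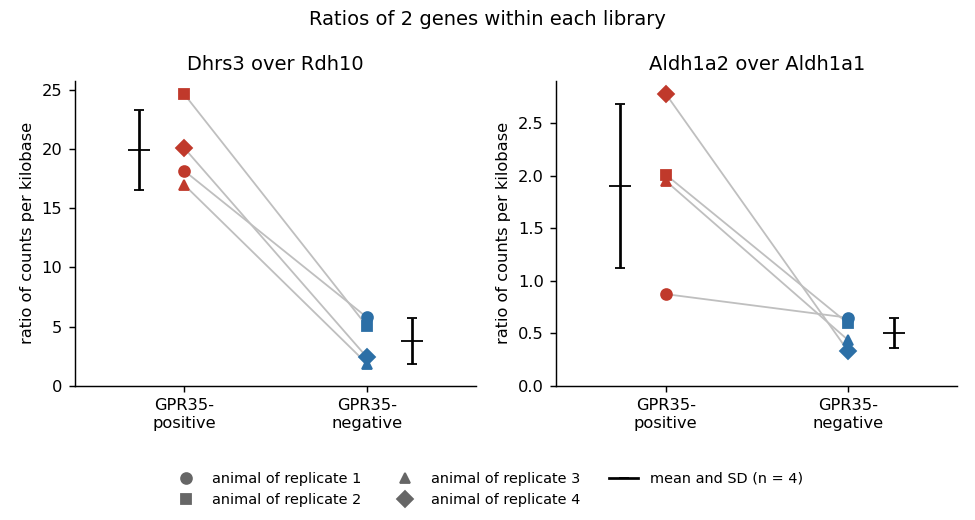
Ratios of counts per kilobase of Dhrs3 over Rdh10 (left) and of Aldh1a2 over Aldh1a1 (right) are plotted on linear axes from 0 for GPR35-positive (red) and GPR35-negative (blue) libraries, with grey lines joining libraries of 1 animal and black bars giving mean and SD. Dhrs3 over Rdh10 was 17.0 to 24.6 in positive and 1.89 to 5.80 in negative libraries, and Aldh1a2 over Aldh1a1 was higher in the positive library of each animal.

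Marker genes of other cells differed between the groups in the same direction as several of these values. Of 10 stromal markers, 9 were lower in GPR35-positive cells in the edgeR test, and their sum was 144 to 931 CPM in GPR35-positive and 3440 to 6937 CPM in GPR35-negative libraries; of them Col6a3 was at 0 in 1 library. Aldh1a1 followed the same order as this sum over the negative libraries, replicate 2 lowest at 3440 CPM of stromal markers, then 1, 3 and 4 at 5183, 6561 and 6937 CPM. Over the positive libraries the orders differed, since replicate 1, lowest in Aldh1a1, was not lowest in stromal markers. The 10 epithelial markers summed to 81.5 to 148 CPM in positive and 208 to 653 CPM in negative libraries, 2 of them lower by the test. Of these, only Cdh1 and Vil1 had positive log2 fold changes, not past the threshold. The 6 endothelial markers summed to 74.6 to 131 CPM in positive and 120 to 623 CPM in negative libraries, 1 of them lower. Over all tested genes 19.5% were lower. The endothelial sums overlapped, at 163, 120, 623 and 316 CPM in GPR35-negative replicates 1 to 4. In negative replicate 1 Lyve1 alone held 105 CPM. T and innate lymphoid markers (8 of 10 lower) summed to 52.1 to 63.8 CPM in positive and 335 to 598 CPM in negative libraries. Most of the negative sums was Cd28, at 209, 305, 249 and 251 CPM in replicates 1 to 4, while Cd3d, Cd3e and Cd3g were at most 13.7 CPM. Eosinophil and mast cell markers (2 of 5 tested lower) summed to 5.37 to 10.5 CPM in positive and 49.4 to 225 CPM in negative libraries. Prg2 alone held 43.2, 171, 81.0 and 108 CPM of this in negative replicates 1 to 4. Both sums thus rest largely on single genes. The part of any of these cell types in the lower Aldh1a1, Rdh10 and Rdh11 of GPR35-positive libraries was not tested.

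Conventional dendritic cell markers behaved differently from stromal ones. Of 12, 2 (Batf3 and Dpp4) were higher and 1 (Cd24a) lower in GPR35-positive cells. Of the rest, none past the threshold, Zbtb46, Flt3, Xcr1, Clec9a and Itgae had positive log2 fold changes, and Ccr7, Kit, Btla and Fscn1 negative ones. The sums overlapped at 152 to 338 CPM in positive and 175 to 577 CPM in negative libraries. Cd24a alone held 85.9, 283, 203 and 189 CPM in GPR35-negative replicates 1 to 4, and Ccr7 200 CPM in negative replicate 2. Overlap and order of the negative sums thus rest largely on a few genes. Zbtb46 and Clec9a were each at 0 in 1 library. GPR35-positive replicates 1 to 4 held 152, 291, 333 and 338 CPM of these markers, which is also their order in Aldh1a2. GPR35-negative replicates 1 to 4 held 175, 577, 369 and 350 CPM, and there Aldh1a2 ran in exactly the reverse order. These are 4 points a group that share library and depth, and the part of dendritic cells in Aldh1a2 was not tested.

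**Figure D4:**
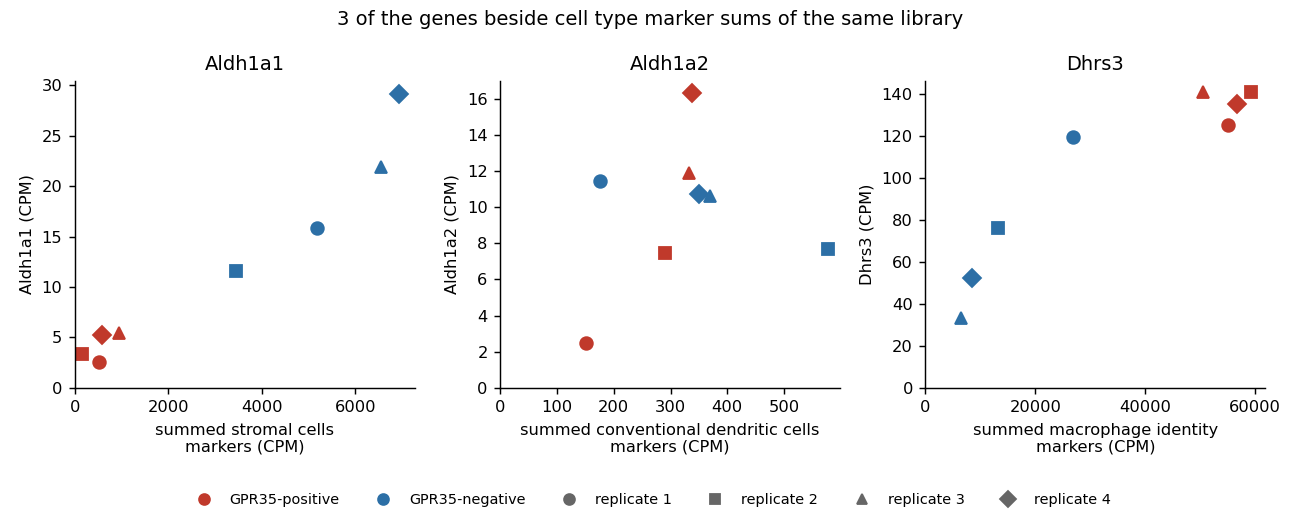
CPM of Aldh1a1, Aldh1a2 and Dhrs3 (vertical axes from 0) is plotted against the summed CPM of stromal, conventional dendritic cell and macrophage identity markers of the same library (horizontal axes), with red for GPR35-positive, blue for GPR35-negative and a symbol for each replicate. Among the 4 negative libraries Aldh1a1 followed the stromal sum and Dhrs3 the identity sum in order, and among the 4 positive libraries Aldh1a2 followed the dendritic cell sum. In the 4 negative libraries Aldh1a2 ran in the reverse order of the dendritic cell sum.

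Differences between animals were tested apart from the sort, with the animal term of the blocked edgeR fit. None of the 6 genes passed, and 0.00% of all 14184 genes did. At an unadjusted p under 0.05 there were 0 of the 6 members (the lowest edgeR value was 0.0535, for Aldh1a1) and 8.34% of all genes. Aldh1a2, whose GPR35-positive libraries spread most widely relative to their mean among the 6, had an unadjusted edgeR value of 0.436. Of 36 other retinoid genes tested, 0 passed and 5 had an unadjusted p under 0.05. Scaled to the identity genes, 586 of all genes passed.

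The rest of the pathway was followed in 5 lists of other retinoid genes, 57 in all, of which 42 were in the table, 36 were tested and 15 were not analysed here. Between the populations 12 of the 36 rose (33.3%) and 10 fell (27.8%) in GPR35-positive cells, with a median log2 fold change of 0.26, beside 18.5%, 19.5% and -0.05 over all tested genes. The lists were drawn up with earlier results of these data known, so these shares describe the lists and are not independent support for a direction. Of the 12 rises, 2 met the filter on low counts through the GPR35-positive libraries alone, and 2 of the 10 falls through the GPR35-negative libraries alone. The count of rises was 7 without replicate 4. Scaled to the macrophage identity genes, 0 of the 12 passed as higher, 10 of them turned negative with 4 of these past the threshold, and all 10 falls remained past the threshold. That scaling moved the median of all genes by the shift given above.

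Among genes of uptake, binding and storage, 3 of 7 tested rose and 3 fell. Lrp1, an endocytic receptor that takes up lipoproteins, rose to 243, 164, 251 and 239 CPM in GPR35-positive replicates 1 to 4, against 154, 38.3, 59.4 and 60.7 CPM in GPR35-negative ones (log2 fold change 1.52 ± 0.40 SE, edgeR adjusted p = 0.0166). Its call ended without replicate 3 (adjusted p = 0.0892) or 4 (0.0965). The lipoprotein receptor Scarb1, which also takes up carotenoids, rose by 1.43 ± 0.45 (SE, edgeR adjusted p = 0.0352). It no longer passed without replicate 1, 3 or 4 (adjusted p = 0.057 to 0.122) or with library totals only (0.0853). Bco2, a mitochondrial carotenoid-cleaving enzyme, rose to 22.2 to 25.8 CPM in GPR35-positive libraries, against 5.39 to 14.2 CPM in GPR35-negative ones (1.53 ± 0.32 SE, edgeR adjusted p = 0.00624). Rbp7, a cellular retinol-binding protein, fell by 3.21 ± 0.95 on the log2 scale (edgeR adjusted p = 0.0267), but did not pass without replicate 2 (0.0801) or 4 (0.131). Rbp7 met the filter on low counts through the GPR35-negative libraries alone. Its groups overlapped, with positive libraries up to 2.32 CPM and negative ones down to 1.07 CPM. Rbp4, the blood carrier of retinol, fell by 2.77 ± 0.54 on the log2 scale (edgeR adjusted p = 0.00463). Dgat1, which can esterify retinol, was at -0.25 ± 0.19 (SE), not past the threshold; with library totals only it was at -0.54 (edgeR adjusted p = 0.0432). Stra6, the receptor for which Stra6l is named, held 0, 0, 6 and 15 reads in GPR35-positive replicates 1 to 4, against 2, 0, 77 and 1 in GPR35-negative ones, and was not tested. The stromal sum, 144 to 931 CPM in positive and 3440 to 6937 CPM in negative libraries, was lower in positive libraries, as Rbp4 and Rbp7 were. Over the negative libraries neither gene had the order of the stromal sum. Rbp4 had that of the endothelial sum there, and Rbp7 that of the epithelial sum. The part of stromal, endothelial or epithelial cells in these genes was not tested.

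Among other enzymes of retinol and retinal, 2 of 11 tested rose and 5 fell. Aldh1a3, the third retinaldehyde dehydrogenase, fell to 1.28, 1.17, 4.64 and 3.36 CPM in GPR35-positive replicates 1 to 4, against 15.4, 5.23, 26.0 and 21.9 CPM in GPR35-negative ones (log2 fold change -2.71 ± 0.62 SE, edgeR adjusted p = 0.0089); without replicate 4 the adjusted p was 0.0522. Its order over the negative libraries, replicate 2 lowest, then 1, 4 and 3, was that of the endothelial sum. It matched the order of Aldh1a1 and of the stromal sum at the low end only. The alcohol dehydrogenase Adh1 fell by 2.02 ± 0.43 on the log2 scale (edgeR adjusted p = 0.00648) and the retinal reductase Rdh12 fell by 2.68 ± 0.56 (0.00597). Dhrs7 fell by 0.86 ± 0.20 (edgeR adjusted p = 0.00952) and Dhrs4 fell by 0.66 ± 0.18 (0.0208); the call of Dhrs4 ended without replicate 2, 3 or 4 (0.0688 to 0.0819). Retsat, which saturates retinol, rose by 0.63 ± 0.16 (SE, edgeR adjusted p = 0.0144), but did not pass without replicate 3 (0.068) or 4 (0.0827) or with library totals only (0.118). Dhrs9, a retinol dehydrogenase, held 21, 27, 104 and 88 reads in GPR35-positive replicates 1 to 4, against 0, 0, 7 and 0 in GPR35-negative ones. It passed at an edgeR adjusted p of 0.0381, which ended without replicate 1, 2 or 4 (0.0779 to 0.145), with limma voom (0.079) and without a count filter (0.0545). It met the filter on low counts through the GPR35-positive libraries, and its fitted log2 fold change of 4.39 ranged from 3.76 without replicate 4 to 8.25 without replicate 3, whose negative library was the only negative one with reads. Adh5, Rdh13 and Rdh14 were at -0.01, -0.04 and -0.07 on the log2 scale and Rdh5 at 0.77 ± 1.07, none past the threshold. The stromal sum was 144 to 931 CPM in positive and 3440 to 6937 CPM in negative libraries, and the plasma cell sum 1211 to 2639 and 73211 to 143353 CPM. Both were lower in positive libraries, as Aldh1a3, Adh1, Rdh12, Dhrs7 and Dhrs4 were. Over the negative libraries Rdh12 had the order of the plasma cell sum, and Adh1, Dhrs7 and Dhrs4 had the order of neither sum. The part of stromal, plasma or endothelial cells in the falls of the 5 genes was not tested.

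Of the carriers and breakdown enzymes of retinoic acid, 1 of 2 tested rose. Fabp5, a fatty acid carrier that can also bring retinoic acid to the nucleus, rose to 84.1, 75.3, 46.7 and 48.5 CPM in GPR35-positive replicates 1 to 4, against 12.7, 7.43, 26.0 and 16.8 CPM in GPR35-negative ones (2.01 ± 0.38 SE, edgeR adjusted p = 0.00373). Cyp26b1, which degrades retinoic acid, held 6, 0, 12 and 12 reads in GPR35-positive replicates 1 to 4, against 0, 0, 55 and 134 in GPR35-negative ones, and was not tested.

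Among the receptors, 2 of 5 tested rose and 0 fell. Rara, retinoic acid receptor alpha, was at 53.8, 60.6, 51.7 and 47.5 CPM in GPR35-positive replicates 1 to 4, against 26.7, 18.7, 25.9 and 15.98 CPM in GPR35-negative ones (1.29 ± 0.19 SE, edgeR adjusted p = 0.0013). Its partner Rxrb rose by 0.93 ± 0.15 (SE, edgeR adjusted p = 0.00213). Rxra was at 1.39 ± 0.67 (SE), Rarg at -0.20 ± 0.28 and Rarb at -0.55 ± 1.27, none past the threshold. Scaled to the identity genes Rara and Rxrb turned to -1.21 and -1.62, above the median of all genes at -2.59. That scaling moves all genes largely together, so no direction is read from this position.

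Of genes known to respond to retinoic acid, 4 of 11 tested rose and 2 fell, and 5 rose with the animal as a block, Cd38 (0.56, edgeR adjusted p = 0.0266) being added. Asb2, a ubiquitin ligase subunit, rose to 127, 170, 176 and 188 CPM in GPR35-positive replicates 1 to 4, against 44.2, 65.0, 50.9 and 45.03 CPM in GPR35-negative ones (1.69 ± 0.18 SE, edgeR adjusted p = 0.000258). Hic1, a transcriptional repressor, rose to 69.2, 66.3, 53.3 and 60.2 CPM, against 16.8, 15.2, 24.8 and 9.97 CPM in GPR35-negative replicates 1 to 4 (1.90 ± 0.26 SE, edgeR adjusted p = 0.000933). Tnip1, an inhibitor of NF-kB signaling, rose by 0.65 ± 0.13 (SE, edgeR adjusted p = 0.00558), but did not pass with library totals only (0.0664). The gut homing receptor Ccr9, known from lymphocytes and plasma cells, fell by 4.10 ± 0.60 on the log2 scale (edgeR adjusted p = 0.00124). Rarres2, which encodes chemerin, fell by 3.21 ± 0.37 (edgeR adjusted p = 0.000394). Plasma cell markers, at 1211 to 2639 CPM in positive and 73211 to 143353 CPM in negative libraries, were lower in positive libraries. So was the stromal sum, as Ccr9 and Rarres2 were. Over the negative libraries neither gene had the order of the plasma cell sum or of the stromal sum. Ccr9 was at 40.6, 13.3, 25.8 and 5.42 CPM in GPR35-negative replicates 1 to 4, highest where the plasma cell sum was lowest. Rarres2 was lowest in replicate 1, as the plasma cell sum was, and highest in replicate 4, as the stromal sum was. The part of plasma or stromal cells in the falls of Ccr9 and Rarres2 was not tested. Rai14 was at 1.70 ± 0.81 (SE), not past the threshold, and passed without replicate 3 (3.33, edgeR adjusted p = 0.00744).

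**Figure D5:**
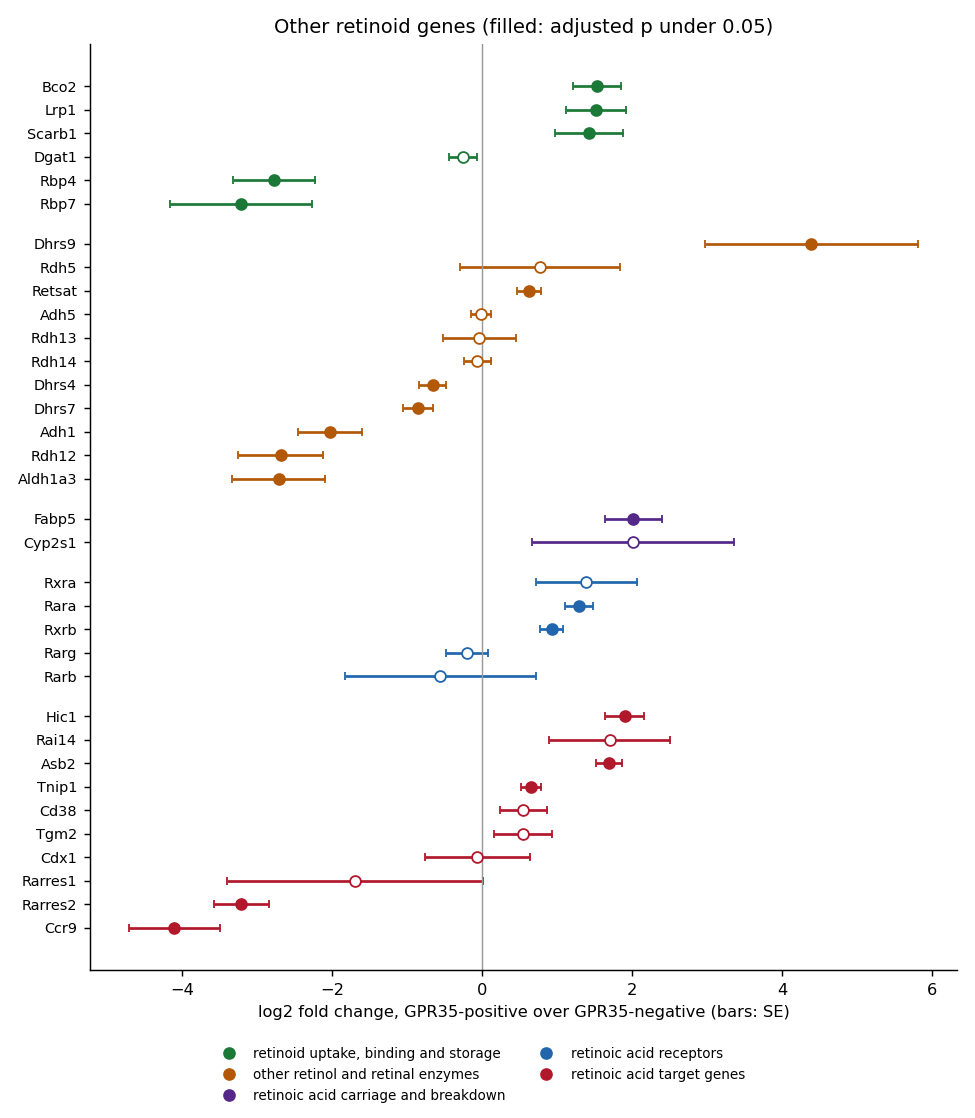
The log2 fold change of GPR35-positive over GPR35-negative cells (points, with SE as bars) is plotted for 34 of the 36 tested retinoid genes outside the 6 members, coloured by list and filled where the adjusted p was under 0.05. The 11 filled points on the right start with Retsat at 0.63 and end with Dhrs9, which had 0 reads in 3 of the 4 negative libraries, and the 9 on the left from Dhrs4 at -0.66 to Ccr9 at -4.10.

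For each member the 3 tested genes of most similar profile were found by the root mean square difference of log2 CPM over the 8 libraries, after centring each gene on its mean. The nearest to Stra6l was Gpr141, an orphan G protein-coupled receptor, at a difference of 0.39, followed by Il12b (0.87) and Adora3 (0.91). For Dhrs3 they were Marcksl1 (0.11), Ogfrl1 (0.16) and Dnase1l1 (0.17), and for Rdh10 they were Grk5 (0.12), Lca5 (0.13) and Rtel1 (0.14). Rdh11 lay nearest to Rbmx (0.11), Haus3 (0.12) and Timm29 (0.13). Aldh1a1 lay nearest to Tcaf1 (0.17), Fkbp9 (0.20) and Lgalsl (0.20), and Aldh1a2 to Kcnip3 (0.29), Slc40a1, the iron exporter ferroportin (0.36), and the scavenger receptor Cd36 (0.38). Between members the smallest difference was 0.47, for Rdh10 and Rdh11, then 0.55 for Aldh1a1 and Rdh10, and the largest 4.28, for Stra6l and Aldh1a1. The measure holds the contrast between the populations and is given as a description over 8 libraries from 4 animals.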

How the data were processed

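Counts are the whole-number read counts per gene that the authors deposited; the gene length column was used for levels per kilobase. The submitters' processing notes name STAR 2.5.2a, R 3.4.2 and mm10; no source used here names the counting tool or annotation. SMART-Seq v4 cDNA went into Nextera XT libraries, per the labels' protocols, without molecular identifiers or strand, so PCR copies count as reads. Of 14980 rows, 9 had no symbol (0.0179% of counts) and were left out. The test was edgeR 4.0.16 in R 4.3.3 (filterByExpr with minimum count 10 and total 15, TMM, robust quasi-likelihood F-test, no block, Benjamini-Hochberg over 14184 genes, threshold 0.05). The fit was run on simulated counts in which few genes changed between the groups, equally up and down. That check does not cover the difference in library composition between these groups. SE is the fold change over the root of F. Log2 CPM used a prior count of 2. Limma 3.58.1, DESeq2 1.42.0, other scalings and filters, the animal block and leaving out each animal were alternatives. Identity scaling sets each library to the geometric mean of 20 macrophage genes, with 0.5 added to counts. The members, lists and alternatives were chosen with earlier results of these data known. The other named genes are the listed retinoid genes and, per member, the 3 of nearest profile; some listed genes are counted but not reported here. Markers named beside results are examples from fixed lists. Libraries pair by animal, per the labels; deviations from the group mean correlated between the libraries of 1 animal at 0.206, 0.206, 0.431 and 0.0637 in replicates 1 to 4, where the highest correlation with another animal was 0.104, 0.104, 0.237 and 0.237, above the own value in replicate 4. Nothing in the labels names batches. P-values of the main fit measure the spread of the libraries of 4 animals within each sorted group and leave the pairing out. Only fits with the animal block use it.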

Additional observations from a re-analysis of the deposited data

Results flagged for a closer look

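Within groups of 4 libraries, 84 groups of 42 genes were checked for a library far from the others by Dixon's ratio, above 0.829, and 6 were found; chance alone flags about 1 in 20 groups. Rdh11 was at 37.7 CPM in GPR35-negative replicate 2, above 24.1 to 26.2 CPM in the other negative libraries. Lrp1 was at 164 CPM in GPR35-positive replicate 2, below 239 to 251 CPM in the other positive libraries. Dhrs7 was at 134 CPM in GPR35-negative replicate 4, above 84.2 to 86.0 CPM in the others. Dhrs9 was at 0.280 CPM in GPR35-negative replicate 3 and at 0 in the others. Retsat was at 26.0 CPM in GPR35-negative replicate 1, above 18.8 to 19.5 CPM in the others, and Rai14 at 22.2 CPM in GPR35-negative replicate 3, above 1.78 to 4.29 CPM in the others.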

How the results depend on the processing

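Scaling every library to the macrophage identity genes moved the most values. All genes past the threshold were then 12253, and 11606 with the replicate block, against 5386 without that scaling, split into 78 higher and 12175 lower against 2617 and 2769; other retinoid genes were 0 higher with either fit and 24 lower, or 21 lower with the block; genes that differed between animals were 586, against 0. With identity scaling, and then also with the block, the log2 fold changes were 3.19 and 4.08 for Stra6l, -4.88 and -4.57 for Aldh1a1, -2.59 and -2.71 for Aldh1a2, -3.95 and -3.78 for Rdh10, -3.28 and -3.13 for Rdh11, and -1.25 and -1.24 for Dhrs3. It also turned the sign, in the same order of fits, of Lrp1 (-0.72 and -0.64), Scarb1 (-1.31 and -0.64), Bco2 (-0.71 and -0.69), Retsat (-1.84 and -1.71), Fabp5 (-0.73 and -0.23), Rara (-1.21 and -1.02), Rxrb (-1.62 and -1.40), Hic1 (-0.70 and -0.36), Asb2 (-0.84 and -0.66) and Tnip1 (-1.91 and -1.72). The cause was not tested. With library totals only the split was 1695 higher and 4191 lower, the median of all genes -0.34, and Rdh10 at -1.72. Leaving out 1 animal gave 3284 (without replicate 3) to 4807 genes past the threshold, with 3304 when replicate 4 was left out, 7 (without replicate 4) to 10 higher and 7 (without replicate 4) to 10 lower retinoid genes, and member values of 5.64 to 6.72 for Stra6l, -2.34 to -2.11 for Aldh1a1, -0.44 to 0.30 for Aldh1a2, -1.56 to -1.35 for Rdh10, -0.90 to -0.50 for Rdh11 and 0.69 to 1.37 for Dhrs3; fewer samples were fitted there. The replicate block without identity scaling gave 5585 genes past the threshold and, of the tested retinoid genes named, added the call of Cd38 and ended none. The filter of 5 CPM left Dhrs9 and other low genes with no value. Reads at these depths leave Stra6l in GPR35-negative libraries, at 0 to 18 reads, near the counting limit.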
